A study of Rattus norvegicus with 241 samples.

Results

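The genes described here are 9 heat shock and related chaperone genes, HSPB1, CRYAB, HSPA8, HSPH1, HSP90AA1, DNAJB1, DNAJA1, HSPA5 and HSPE1, taken by symbol, ignoring case, from every bulk and single-cell table of a study of rat mammary gland after inhibition of TGFβ signalling. They are 9 of 17607 genes in the table with most genes, and 8 were present in the NMU and young SD CD45 tables, which held no row for HSP90AA1. The series held 241 samples in 69 groups, of which 202 were bulk RNA-seq samples from 68 rats and 39 were single-cell libraries with 160052 cells. TGFBRi stands for LY2157299, an inhibitor of the TGFβ receptor kinase, given by gavage at 75 mg/kg, and the controls received the vehicle alone. Young ACI rats were dosed for 10 days from day 35 of age and sampled on day 0, 7 or 14 after dosing, with 3 rats per arm. Young SD (Sprague Dawley) rats were dosed for 10 days from day 24 and sampled on day 0, with 4 rats per arm in bulk. Adult ACI rats, virgin or parous, began 10 days of dosing at 18 to 24 weeks and were sampled on day 0, with 4 rats per group except for CD45 cells, where the virgin TGFBRi group held 3 and the parous vehicle group 2. SD rats of the NMU experiment were dosed for 10 days from day 21 and then given 50 mg/kg of the carcinogen N-nitroso-N-methylurea (NMU). Their glands came from 3 TGFBRi rats with a tumor, 3 TGFBRi rats without and 3 tumor-bearing vehicle rats, and tumors of both arms from 3 rats each, all on day 87 after dosing. ACI rats of the E2 experiment were dosed for 21 days from day 38, with or without a 37 mg estradiol implant, and sampled when that tumor experiment ended. The groups were 4 tumor-bearing vehicle, 4 tumor-free TGFBRi, 2 tumor-bearing TGFBRi, 3 TGFBRi without E2 and 4 vehicle without E2 rats. Being tumor-free or tumor-bearing is an outcome, so those groups were not assigned. Bulk samples were sorted basal (CD24+CD29high), luminal (CD24+CD29low) and CD45+ cells, and EPCAM+ cells in tumors. Single-cell libraries came from ACI basal and luminal sorts (3 rats per arm), SD basal and luminal sorts (3 vehicle and 6 TGFBRi rats) and whole SD glands without a sort (3 vehicle and 6 TGFBRi rats), all on day 0 after 10 days of dosing from day 35 of age in ACI and day 24 in SD rats.

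Heat shock proteins are chaperones that bind unfolded protein chains. Many of their genes are switched on by the factor HSF1 when cells meet heat, oxidants or inhibitors of the proteasome, and enzymatic dissociation of a tissue is known to raise them too. HSPB1 and CRYAB are small heat shock proteins that hold unfolded clients without ATP, HSPA8 is the constitutive cytosolic HSP70, HSPH1 exchanges its nucleotide, DNAJB1 and DNAJA1 are J-domain partners that deliver clients to HSP70, and HSP90AA1 is the inducible cytosolic HSP90. HSPA5 (BiP) is the HSP70 of the endoplasmic reticulum (ER), induced by the unfolded protein response, and HSPE1 is the lid of the mitochondrial HSP60 chaperonin. CRYAB and HSPB1 are also known to be abundant in muscle-like and glial cells.

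The promoters of 7 of the 9 genes were matched in RefSeq (GRCr8), and those of HSPA8, HSPH1, HSPE1 and HSPA5 are shown because the first 3 hold a complete heat shock element before the start and HSPA5 holds the only ER stress element among the genes. Each line gives the 250 bases before the start, 5′ to 3′ on the gene's strand, at chr8:50080264-50080513 (+), chr12:10427118-10427367 (+), chr9:64084077-64084326 (+) and chr3:38452766-38453015 (+) in that order. Capitals mark matches to a heat shock element of 2 units (GAANNTTC or TTCNNGAA) or of 3 units (the same with a further GAA or TTC after 2 more bases), or to the ER stress element (CCAAT, 9 bases of any kind and CCACG, or the reverse complement).
HSPA8: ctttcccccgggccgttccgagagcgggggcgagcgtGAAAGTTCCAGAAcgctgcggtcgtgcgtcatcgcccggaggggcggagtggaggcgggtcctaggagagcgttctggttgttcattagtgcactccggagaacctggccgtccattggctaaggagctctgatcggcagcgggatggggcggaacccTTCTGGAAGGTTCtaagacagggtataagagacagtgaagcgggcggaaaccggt
HSPH1: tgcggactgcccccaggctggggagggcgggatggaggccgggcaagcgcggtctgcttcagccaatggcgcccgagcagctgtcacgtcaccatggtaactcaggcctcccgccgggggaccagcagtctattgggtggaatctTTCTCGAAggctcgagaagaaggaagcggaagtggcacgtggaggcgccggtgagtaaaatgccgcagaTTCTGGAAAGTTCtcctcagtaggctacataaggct
HSPE1: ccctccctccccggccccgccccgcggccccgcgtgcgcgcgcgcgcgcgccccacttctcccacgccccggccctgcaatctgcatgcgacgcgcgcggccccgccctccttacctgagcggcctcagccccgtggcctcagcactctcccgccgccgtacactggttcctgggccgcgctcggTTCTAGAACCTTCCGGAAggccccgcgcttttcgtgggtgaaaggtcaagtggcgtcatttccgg
HSPA5: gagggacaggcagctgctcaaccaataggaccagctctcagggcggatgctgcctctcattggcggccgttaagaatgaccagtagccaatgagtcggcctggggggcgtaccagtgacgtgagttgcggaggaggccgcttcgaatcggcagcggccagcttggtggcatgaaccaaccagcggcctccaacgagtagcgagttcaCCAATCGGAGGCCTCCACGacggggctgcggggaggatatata
In the whole window of 300 bases, which adds 50 bases after the start, 4 of the 7 genes held the element of 3 units: HSPA8 had 2, at 213 and 55 bases before the start, HSPH1 had 1 at 36 bases, HSPE1 had 2 that overlap, at 65 and 60 bases, and DNAJA1 had 1 beginning 9 bases after the start. The element of 3 units stood in 267 of 33469 promoters (0.798%). The element of 2 units, which every 3-unit match contains, stood in 6 of the 7 genes, HSPB1 and DNAJB1 included, and in 15.9% of all promoters. HSPA5 held the ER stress element from 43 to 25 bases before its start, against 22 promoters in all (0.0657%). A match of letters is a description and not a bound site.

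Depth was 4194912 to 52314784 reads on genes per bulk sample and 4517218 to 45501762 UMIs per sorted single-cell library, with 43110875 to 92699378 UMIs per whole-gland library. In rpm (reads scaled to the total on genes of the sample), KRT14 lay between 1178 and 16403 in basal and between 7.14 and 1309 in luminal samples, and KRT18 between 1453 and 8208 in luminal and 74.9 and 1159 in basal samples. PTPRC, the gene of CD45, lay between 48.3 and 1368 in CD45 samples and at 51.4 or less in the other sorts. The EPCAM+ tumor sort went against its label, with 8 fibroblast markers summing to 9750 to 78788 rpm and 4 luminal markers to 1720 to 11214. The other sorts were not free of fibroblast markers either, which summed to 442 to 57066 rpm (median 3441) in basal and 20.2 to 89282 (median 3124) in CD45 samples, and KRT14 reached 7039 rpm in a CD45 sample. In the SD basal single-cell sort, vehicle replicate 2 stood apart, with fibroblast markers at 84.5 UMIs per 10000 against 1.90 to 24.5 in the other libraries. The labels of 3 young ACI samples on day 7 conflict: 1 field describes the basal and luminal samples of vehicle replicate 3 as from a treated rat, where their titles and treatment field say control, and the title of CD45 TGFBRi replicate 3 says day 9, where its other fields say day 7. They were kept as the treatment and day fields say. In the 3 comparisons of TGFBRi with vehicle on day 7 limma called 0 of 27 chaperone tests with them and 0 without them (smallest adjusted p = 0.921, and 0 at an unadjusted p under 0.05 in either), edgeR and DESeq2 called none with them, and 4 folds without a call changed sign. In the whole gland, vehicle replicate 3 was mostly the highest vehicle rat for the chaperones, as shown further on. The whole-gland counts of called chaperones are given with and without it. No pair of single-cell libraries shared more than 284 barcodes, out of 11816 in the smaller library.

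The bulk level of each gene, in rpm, varied widely among samples. CRYAB ranged from 51.8 to 965 in 51 basal samples (median 207), from 15.1 to 1123 in 68 luminal samples (median 122) and from 0 to 305 in 71 CD45 samples (median 17.9). DNAJB1 had medians of 1787, 674 and 710, HSPA5 of 1996, 4243 and 3438, HSPA8 of 636, 876 and 1035, and HSPB1 of 405, 400 and 153 in basal, luminal and CD45 samples. HSPA8 has many processed pseudogenes, so its share of the reads is uncertain. HSP90AA1 had few reads in bulk: 60 to 514 per sample in the E2 and 30 to 245 in the adult set, but 0 to 13 in young ACI, 0 to 11 in young SD and NMU tumor and 0 to 6 in NMU samples. Its highest level was 8.98 rpm, where its paralog HSP90AB1 ranged from 430 to 4747. The single-cell libraries detected HSP90AA1 in every sort, at 2.12 UMIs per 10000 or more. Its bulk values enter the counts of tests and pairs, and its folds in bulk are not described singly.

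The question put to the bulk samples was whether the chaperones differed between TGFBRi and vehicle rats. Across 32 comparisons the 9 genes gave 283 tests, and limma called 1 at an adjusted p of 0.05 or less, where 0.588% of all genes tested were called over the same comparisons. Scaled to the total reads on genes of each sample in place of the deposited size factors, an alternative chosen after seeing the data, 4 tests were called. At an unadjusted p under 0.05 there were 27 tests, and 159 of the 283 folds were above 0. The differences of the effect between days or by parity (12 comparisons of all 9 genes) gave no call, 10 at an unadjusted p under 0.05, with 0.0977% of all genes called. Comparisons within vehicle rats over days, parity or estradiol (99 tests, 11 comparisons) likewise gave no call by limma, 19 at an unadjusted p under 0.05. Over all genes 0.286% were called, and 21 of the 99 folds were above 0. The vehicle rats with estradiol all bore tumors, so estradiol and tumor status cannot be told apart.

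**Figure D1:**
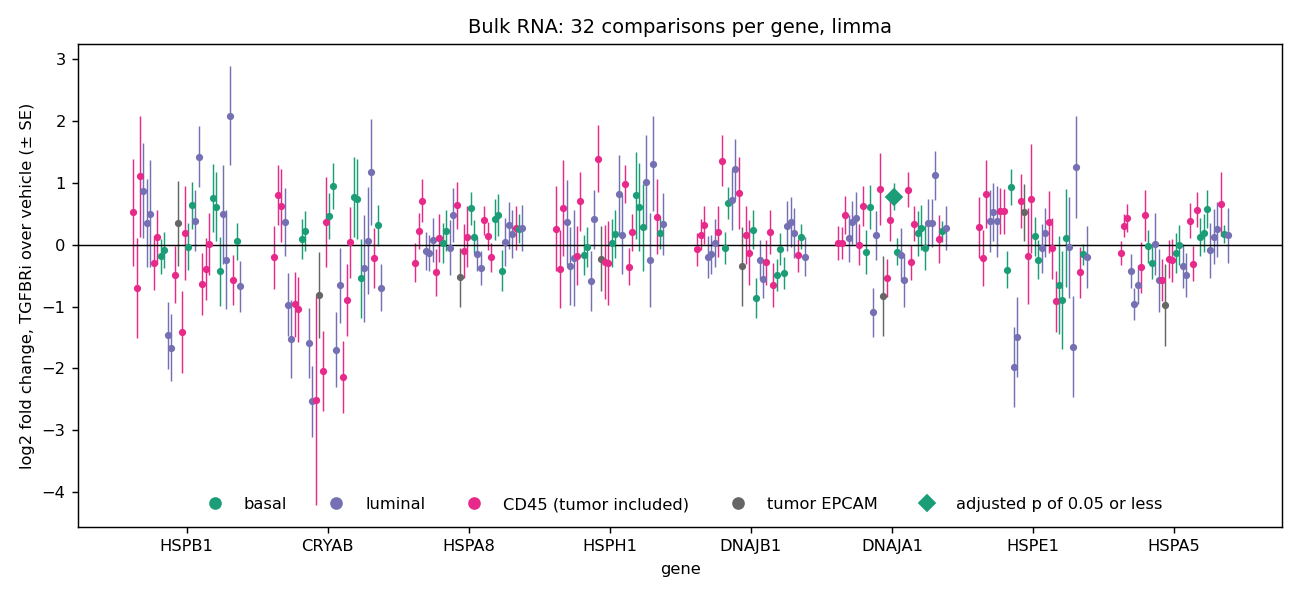
Log2 fold change of TGFBRi against vehicle (x axis; points, limma estimates; bars, standard errors) for 8 chaperone genes in each of 32 bulk comparisons, 1 panel per gene (HSP90AA1, with 13 or fewer reads a sample outside the adult and E2 sets, is not drawn). Most points lie within 1 log2 unit of 0, and the single diamond, DNAJA1 in basal cells of adult virgin rats, is the only call.

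The call was DNAJA1, a J-domain partner of HSP70, in basal cells of adult virgin rats. Its normalized count was 12762, 7588, 7951 and 8480 in the vehicle rats and 15114, 13440, 15544 and 17711 in the TGFBRi rats. The groups did not overlap, though 1 vehicle rat came near the lowest treated one. The log2 fold was 0.77 ± 0.22 (SE, n = 4 and 4; limma, adjusted p = 0.0364), in a comparison in which 8.73% of all genes were called and the median gene stood at −0.25. The call held in 3 of 8 fits that left out 1 rat, with folds of 0.69 to 0.94, and was lost when only these groups were fitted. In parous rats DNAJA1 was 7633 to 12734 in vehicle and 6976 to 11068 in TGFBRi samples, which overlap. HSF1 was called in the same comparison (log2 0.75, adjusted p = 0.0262), as were the small heat shock protein HSPB6 (0.92, adjusted p = 0.011), the ER chaperone and calcium store CALR (−1.37, adjusted p = 0.00376) and the ER HSP110 HYOU1 (−0.92, adjusted p = 0.0333). Summed basal markers ranged from 8817 to 20979 rpm in vehicle and from 7972 to 17848 in TGFBRi rats, and fibroblast markers from 1218 to 3040 and from 442 to 5481. Their part in these values was not tested. In bulk samples, fewer cells of a type and less RNA per cell cannot be told apart.

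The lowest p-values that missed the threshold belonged to CRYAB. In luminal cells of NMU rats its normalized count was 13218, 35875 and 4554 in tumor-bearing vehicle rats, 3324, 1627 and 2064 in tumor-bearing TGFBRi rats and 3445, 4424 and 5190 in tumor-free TGFBRi rats. All tumor-bearing TGFBRi rats lay below all vehicle rats, while the tumor-free rats overlapped the lowest vehicle rat. The folds were −2.53 ± 0.57 (limma, adjusted p = 0.0598) and −1.59 ± 0.57 (limma, adjusted p = 0.149), from the same 3 vehicle rats. HSPB1, the other small heat shock protein, had 9855, 42837 and 10066 in those vehicle rats against 3574 to 6374 and 4384 to 9861 in the TGFBRi groups, with folds of −1.67 (adjusted p = 0.135) and −1.46 (adjusted p = 0.153). HSPE1 had 9787, 8774 and 1351 against 1179 to 3266 and 1118 to 1432. Vehicle replicate 3 was the lowest of the vehicle rats for CRYAB and HSPE1, and without it 6 of the 18 tests in NMU luminal cells were called in place of none. These values depended on the size factors: the median of all genes stood at −0.26 and −0.32 in these comparisons and at 0.31 and 0.02 when samples were scaled to total reads. In rpm CRYAB was 475, 1123 and 246 in vehicle, 182, 94 and 140 in tumor-bearing and 161, 252 and 259 in tumor-free TGFBRi rats, with folds of −1.93 (limma, adjusted p = 0.0319, a call) and −1.21 (adjusted p = 0.202). HSPB1 was 354, 1341 and 543 rpm in vehicle and 195, 368 and 396 in tumor-bearing TGFBRi rats, which overlap, with folds of −1.06 (adjusted p = 0.284) and −1.09 (adjusted p = 0.279). On that scale DNAJB1 was called higher in tumor-bearing TGFBRi rats (1.84, adjusted p = 0.0388), and all genes called there numbered 616 higher and 17 lower, against 26 and 4 with the size factors. DNAJA1 did not overlap between vehicle (3615, 3817 and 4118) and tumor-free TGFBRi rats (1416, 1843 and 2234), with a fold of −1.09 ± 0.39 (adjusted p = 0.148), which was −0.72 when scaled to total reads (adjusted p = 0.423). Limma called none of these 18 tests (8 had an unadjusted p under 0.05), where 0.212% of all genes were called against tumor-bearing and 0.948% against tumor-free TGFBRi rats, while edgeR called 1 and DESeq2 8.

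Some groups did not overlap and still missed the threshold. The cases given are examples, since such separations were not counted over the tests or over all genes. Groups this small can also separate by chance. HSPE1 in basal cells of NMU rats was 2154, 1724 and 1273 in vehicle and 2491, 3143 and 4160 in tumor-bearing TGFBRi rats. Every treated rat was higher there, without a call, where 174 of 13312 genes were called. HSPA5 in luminal cells of estradiol-treated rats was 185291, 136099, 142868 and 253718 in tumor-bearing vehicle rats and 76630, 96339, 129308 and 66686 in tumor-free TGFBRi rats, every treated rat lower (log2 −0.96 ± 0.26, limma, adjusted p = 0.36), where 0.0147% of all genes were called. HSPB1 in luminal cells of young ACI rats on day 14 was 2141, 5748 and 6146 in vehicle and 9537, 15447 and 39177 in TGFBRi rats, every treated rat higher (log2 2.08 ± 0.80, limma, adjusted p = 0.488), where 0 of 15181 genes were called.

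In CD45 cells the fold of CRYAB in TGFBRi against vehicle rats was below 0 in 8 of 12 comparisons and above 0 in 4, with no call by limma and an unadjusted p under 0.05 in 2, which are given first. In young ACI rats on day 0 its normalized count was 1200, 1664 and 1338 in vehicle and 272, 175 and 654 in TGFBRi rats, with no overlap (log2 −2.14, limma, adjusted p = 0.0574), where 2.85% of all genes were called, 123 higher and 297 lower. With total-read scaling the fold was −1.93 (adjusted p = 0.0701), with 201 genes higher and 197 lower, and DNAJA1 was called higher (1.10, adjusted p = 0.0413, against 0.89 and 0.101). The 8 fibroblast markers summed to 12687 to 32403 rpm in those vehicle samples and 978 to 7283 in the TGFBRi samples, the 7 mural markers to 88.8 to 99.7 and 15.2 to 25.2, and KRT14 was 58.3 to 170 and 1.31 to 4.38. These marker groups moved with CRYAB, and their part in its difference was not tested. In adult virgin rats CRYAB was 2751, 505, 472 and 547 in vehicle and 204, 143 and 224 in TGFBRi rats (log2 −2.04, limma, adjusted p = 0.718), again without overlap, where 0.0220% of all genes were called. The same experiments did not show this elsewhere: on day 14 CRYAB was 922, 2393 and 1706 in vehicle and 3957, 1024 and 1003 in TGFBRi rats (0.04, limma, adjusted p = 1), and in parous rats 118 and 234 against 174, 375, 303 and 109 (0.37, adjusted p = 1). The fold on day 7 was −0.89 (−0.52 without the sample whose title says day 9), in glands of NMU rats −1.05 with and −0.96 without a tumor, in NMU tumors −2.52, in young SD rats −0.22, without estradiol −0.21, and with estradiol 0.63 with and 0.80 without a tumor, and the groups overlapped in each of these. In vehicle rats of the E2 experiment CRYAB was 10.8, 13.5, 27.7 and 31.2 with estradiol and 92.2, 142, 69.6 and 83.2 without. The rats with estradiol all bore tumors, so estradiol and tumor status cannot be told apart. The groups did not overlap (log2 −2.24, limma, adjusted p = 0.0529), where 0.282% of all genes were called. The 4 luminal markers summed to 23.6 to 79.2 rpm with estradiol and 256 to 339 without, and their part in that difference was not tested.

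A basal and a luminal layer of epithelium line the gland, and the vehicle rats allowed the chaperones to be compared between them. CRYAB had the higher mean in basal cells in all 4 data sets and was called in 3, and in those 3 DNAJB1 was called higher and HSPA8 lower. The bulk SD samples were the exception, and their values turned with the scaling. In bulk samples of young ACI rats CRYAB was 5484, 3876 and 4831 in basal and 2242, 1725 and 2579 in luminal cells (log2 1.12 ± 0.18, limma, adjusted p = 0.00036). DNAJB1 followed, with 35531, 28289 and 29151 against 19853, 19339 and 16405 (log2 0.74 ± 0.14, adjusted p = 0.00105). HSPA8 was 12298, 13959 and 11651 against 18609, 18660 and 16028, so that the sorts did not overlap (log2 −0.49 ± 0.13, adjusted p = 0.0104). HSPB1 (−0.79), DNAJA1 (−0.35) and HSPA5 (−0.35) were also lower in basal cells, so 6 of 9 genes were called where 42.6% of all genes were. CRYAB and DNAJB1 stayed called in all 6 fits without 1 sample, HSPA8 in 5, HSPB1 and HSPA5 in 2 and DNAJA1 in 1. Total-read scaling kept 5 of the 6 calls, all but that of DNAJA1.

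In bulk samples of young SD rats HSPB1 alone of the 8 genes tested was called, at 3228, 2163, 1985 and 3121 in basal and 6092, 8020, 3602 and 6759 in luminal cells (log2 −1.20 ± 0.29, limma, adjusted p = 0.00582), where 54.3% of all genes were called, 3815 higher and 3174 lower. With total-read scaling the median of all genes moved from 0.16 to 0.70 and the calls to 5075 higher and 2041 lower. On that scale HSPB1 was 184 to 289 rpm in basal and 181 to 607 in luminal samples, which overlap (log2 −0.64, limma, adjusted p = 0.156). CRYAB, at 0.40 with the size factors (adjusted p = 0.296), was 178 to 262 rpm in basal and 72.9 to 161 in luminal samples, without overlap (0.96, adjusted p = 0.0163), and HSPH1 was called higher as well (1.62, adjusted p = 0.0399). DNAJB1 was −0.55 with the size factors (adjusted p = 0.0564) and 0.01 per total reads (adjusted p = 0.981), and HSPA8 turned from −0.34 to 0.22, both without a call. A fit with the rat as a block gave 2 calls in place of 1.

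The single-cell sorts gave the same order for CRYAB, DNAJB1 and HSPA8 in both strains. In ACI rats CRYAB was 0.688, 0.546 and 0.441 UMIs per 10000 in basal and 0.258, 0.137 and 0.121 in luminal libraries (log2 1.68, edgeR, adjusted p = 0.00082), and DNAJB1 was higher in basal libraries by 1.56 (adjusted p = 0.00319). HSPH1 (−1.49), DNAJA1 (−1.29), HSPA5 (−1.08), HSPA8 (−1.03) and HSP90AA1 (−0.97) were lower, which made 7 of 9 genes called against 70.8% of all genes. In SD rats DNAJB1 (2.02, adjusted p = 0.00177) and CRYAB (0.98, adjusted p = 0.0187) were higher and HSPA8 (−0.77), HSPH1 (−0.67) and HSP90AA1 (−0.54) lower, 5 of 9 genes against 56.6% of all genes. The HSPH1 call held in 1 of 6 fits without 1 library. Of the related lists, the small heat shock proteins other than HSPB1 and CRYAB were higher in basal cells. Of these, 3 of 3 genes tested were called in each strain, with HSPB2 at 4.73 in ACI and 4.19 in SD rats. HSPB1 was called in neither strain here, and with the size factors it was called lower in basal cells in both bulk sets. The HSP110 gene HSPA4L was lower by a log2 of −3.72 and −3.56 in the same comparisons, and the HSP70 gene HSPA2 higher by 2.81 and 3.66. Of 14 ER chaperones, 11 were lower in ACI basal libraries and none higher, where 35.7% of all genes were lower and 35.1% higher, and in SD rats 4 were lower and 1 higher, where 27.2% and 29.3% of all genes were. Shares of members near the share of all genes called are not a result about the chaperones.

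TGFBRi and vehicle rats were next compared in the sorted single-cell libraries. More of the chaperones were raised than lowered: after TMM scaling edgeR called 5 genes higher in ACI basal, 1 in ACI luminal, 5 in SD basal and 6 in SD luminal libraries, and none lower. Of all genes, 19.5%, 16.2%, 15.5% and 20.5% were called higher and 21.6%, 15.3%, 15.9% and 18.3% lower in the same order. Scaling to the total UMI count instead, an alternative chosen after seeing the data, moved the median of all genes from between −0.03 and 0.06 to between −0.31 and −0.26, and kept 3, 1, 3 and 5 of those calls. The shares of all genes called higher then fell to 9.16%, 4.52%, 4.74% and 6.37%, and 41.1%, 36.8%, 31.1% and 30.2% were called lower. Basal markers summed to 96.9 to 108.3 UMIs per 10000 in vehicle and 98.95 to 101.4 in TGFBRi libraries of the ACI basal sort. The bulk basal and luminal samples of young ACI and SD rats on day 0 gave 0 chaperone calls by limma, and 0 at an unadjusted p under 0.05. Of all genes, 523 of 15643 and 153 of 15181 were called there in ACI basal and luminal samples, and 0 of 12571 and 0 of 12584 in SD samples.

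**Figure D2:**
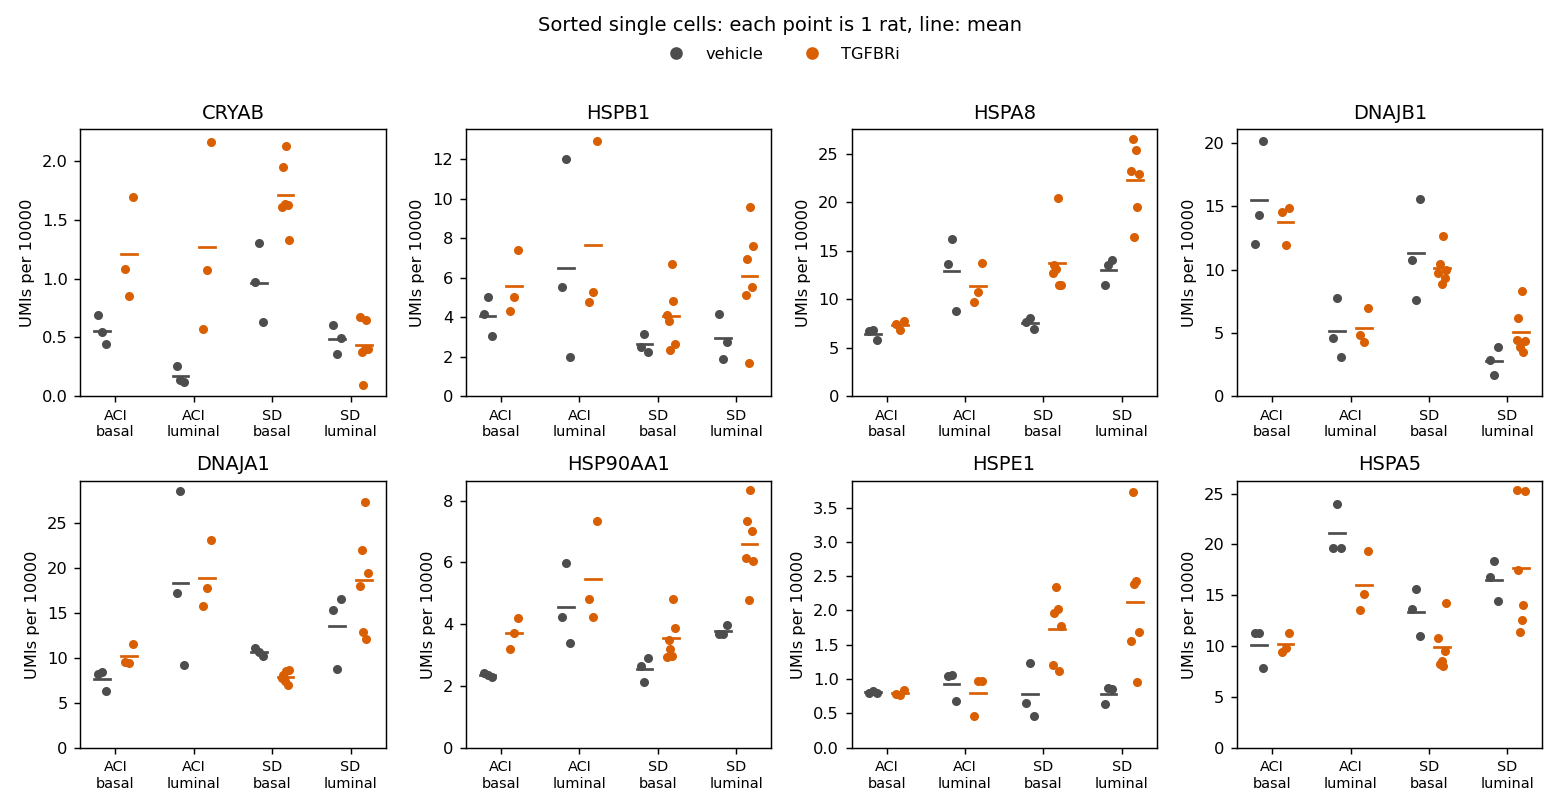
Level of 8 chaperone genes (y axis, UMIs per 10000 UMIs of the library) in each rat of the ACI and SD basal and luminal single-cell sorts, by arm. HSPA8 of the SD sorts shows every TGFBRi rat above every vehicle rat, while the arms overlap for HSPA5 in the SD sorts.

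CRYAB had the largest fold. In the ACI luminal sort it was 0.258, 0.137 and 0.121 UMIs per 10000 in vehicle and 0.568, 1.08 and 2.17 in TGFBRi rats, with no overlap (log2 3.18 ± 0.67, SE from DESeq2; edgeR, adjusted p = 0.00789; 2.87 when scaled to total UMIs). It stayed called in all 6 fits without 1 library. Fibroblast markers in that sort were 0.0147 to 0.0187 UMIs per 10000 in vehicle and 0.0412, 2.68 and 0.0288 in TGFBRi replicates 1 to 3, and basal markers 0.215 to 0.373 and 0.228 to 0.385. Their part in the CRYAB difference was not tested. In ACI basal libraries CRYAB was 0.688, 0.546 and 0.441 against 1.08, 0.854 and 1.70 (log2 1.35, edgeR, adjusted p = 0.00316), and in SD basal libraries 0.974, 1.3 and 0.627 against 1.33 to 2.13 with a median of 1.63 (log2 1.21, edgeR, adjusted p = 0.0191). No TGFBRi rat of either basal sort fell below a vehicle rat. In SD luminal libraries the fold was 0.17 (adjusted p = 0.803). The bulk samples of day 0 overlapped between arms for CRYAB. In young ACI luminal samples its normalized count was 2242, 1725 and 2579 in vehicle and 823, 1782 and 3051 in TGFBRi rats. Young ACI basal samples had 5484, 3876 and 4831 against 3947, 12927 and 10013, and young SD basal samples 1914 to 2914 against 1828 to 5952.

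HSPA8 rose in both SD sorts. It was 7.64, 8.06 and 6.92 UMIs per 10000 in vehicle and 12.7, 13.5, 13.1, 20.4, 11.4 and 11.4 in TGFBRi basal libraries (log2 1.24 ± 0.24, edgeR, adjusted p = 0.0125). In luminal libraries it was 11.5, 13.5 and 14.0 against 16.4 to 26.5 (log2 1.11 ± 0.21, edgeR, adjusted p = 0.0183). Neither sort overlapped between arms, the calls held in 9 of 9 fits without 1 library, and total-UMI scaling gave 0.87 and 0.78, both called. HSPA8 was also called in ACI basal libraries (0.43, adjusted p = 0.017), but not with total-UMI scaling (0.19, adjusted p = 0.152).

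HSP90AA1 rose in 3 sorts: in ACI basal libraries from 2.41, 2.36 and 2.30 to 3.20, 3.72 and 4.21 UMIs per 10000 (log2 0.89 ± 0.13, edgeR, adjusted p = 0.000957), in SD luminal libraries from 3.67, 3.67 and 3.96 to between 4.77 and 8.32 (log2 1.15, adjusted p = 0.0193), and in SD basal libraries from 2.63, 2.12 and 2.91 to between 2.95 and 4.82 (log2 0.86, adjusted p = 0.0392). The arms did not overlap in any of them. The SD basal call was lost with total-UMI scaling (0.48, adjusted p = 0.101), and the others were kept.

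HSPE1, the mitochondrial co-chaperonin, was called in the SD sorts and missed the threshold in the ACI sorts. In SD luminal libraries it was 0.634, 0.876 and 0.851 UMIs per 10000 in vehicle and 1.56, 3.72, 2.39, 2.43, 0.964 and 1.69 in TGFBRi rats (log2 1.76 ± 0.36, edgeR, adjusted p = 0.0202). In SD basal libraries it was 0.651, 1.23 and 0.456 against 1.12 to 2.34 (log2 1.53, edgeR, adjusted p = 0.0199), where 1 vehicle rat overlapped the treated ones. Bulk samples of young SD rats overlapped between arms for HSPE1. Its normalized count was 1043 to 3851 in vehicle and 1155 to 3776 in TGFBRi luminal samples, and 918 to 1316 and 890 to 1307 in basal samples. The folds in the ACI single-cell sorts were 0.21 in basal and 0.08 in luminal libraries. The difference of the effect between SD and ACI sorts was tested in a joint edgeR fit added after seeing the data and was called for none of the 9 genes (3 in basal and 3 in luminal libraries at an unadjusted p under 0.05), where 0.317% of all genes were called in basal and 0.00801% in luminal libraries. In that fit, which pools the spread of both strains, the ACI luminal effect itself called 0 of 12483 genes.

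The remaining genes moved less steadily. HSPB1 was called in ACI basal (0.69, adjusted p = 0.0395), SD basal (1.03, adjusted p = 0.056) and SD luminal libraries (1.39, adjusted p = 0.0523), in the last from 4.17, 1.88 and 2.72 to between 1.67 and 9.56 UMIs per 10000, which overlap. Per total UMIs the HSPB1 calls in ACI basal (0.45, edgeR, adjusted p = 0.101) and SD basal libraries (0.63, adjusted p = 0.149) were lost. DNAJB1 was called in SD luminal libraries (1.18, adjusted p = 0.034), and DNAJA1 in ACI basal (0.65, adjusted p = 0.00781) and SD luminal libraries (0.77, adjusted p = 0.0713), the last of which was lost per total UMIs (0.46, adjusted p = 0.235). In SD basal libraries DNAJA1 was 11.1, 10.6 and 10.2 in vehicle and 7.02 to 8.68 in TGFBRi rats, lower in every treated rat per total UMIs (log2 −0.43, edgeR, adjusted p = 0.0422) but at −0.06 after TMM scaling (adjusted p = 0.802). HSPH1 in ACI basal libraries likewise was −0.68 per total UMIs (adjusted p = 0.0225) and −0.44 after TMM (adjusted p = 0.156). HSPA5 was called in no sort after TMM scaling and fell in ACI luminal libraries per total UMIs (−0.40, adjusted p = 0.0788). Of the 5 SD basal calls, 2 were left without vehicle replicate 1 and 1, HSPA8, without vehicle replicate 3, while all 5 were left without vehicle replicate 2, the library with fibroblast markers. Of the 6 SD luminal calls, 3 were left without vehicle replicate 1 or 2, and the single ACI luminal call became 4 without vehicle replicate 2.

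Calls in other chaperone lists were mostly higher after TMM scaling, and most of the higher calls were lost with total-UMI scaling. Of the 8 subunits of the cytosolic chaperonin TRiC, which folds actin and tubulin, 3 were called higher in ACI basal, 2 in ACI luminal, 5 in SD basal and 7 in SD luminal libraries and none lower, against 0, 0, 1 and 0 higher per total UMIs. Of the HSP70, HSP90 and co-chaperone list, 8, 8, 8 and 9 of 25 or 26 genes tested were higher and 3, 2, 1 and 0 lower, against 4, 2, 0 and 2 higher and 5, 2, 2 and 4 lower per total UMIs. FKBP5, an HSP90 co-chaperone that is a known target of steroid receptors, was higher in ACI basal (1.94, edgeR, adjusted p = 0.000529) and ACI luminal libraries (1.65, adjusted p = 0.00825). Of 11 immediate early genes, which dissociation is known to induce, 8 were lower and 1 higher in ACI basal, 3 and 2 in ACI luminal, 4 and 0 in SD basal and 1 and 0 in SD luminal libraries. Per total UMIs 9, 8, 5 and 4 were lower and 1, 0, 0 and 0 higher. Of all genes, 15.5% to 20.5% were higher and 15.3% to 21.6% lower after TMM in these sorts, and 4.52% to 9.16% higher and 30.2% to 41.1% lower per total UMIs. The part of the immediate early genes in the chaperone values was not tested.

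Whole glands were measured without a sort. The 103524 cells fell into 45 clusters, of which 26, with 84668 cells (81.79%), were named from markers in 12 classes, without using the chaperones or their related lists. In vehicle rats CRYAB was highest in Schwann-like cells, the glia of nerves, at 68.6 ± 2.02 UMIs per 10000 (SD, n = 3), followed without overlap by mural-like cells (9.63 ± 1.91), and then by fibroblast-like (5.28 ± 1.36) and basal-like cells (4.17 ± 0.85), which overlapped each other. Below them lay luminal progenitor-like (1.85 ± 0.91) and macrophage-like cells (0.645 ± 0.217). The 6 other classes, the T-like, B-like and NK-like ones among them, had means between 0.0457 and 0.0948, and the share of free RNA in these values was not tested. HSPB1 was highest in endothelial-like cells at 34.3 ± 30.5, with Schwann-like (29.6), lymphatic endothelial-like (25.8), mural-like (21.1) and fibroblast-like cells (17.2) overlapping it, and lowest in T-like cells (0.624).

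The other genes differed less between classes, with highest to lowest ratios of 1.94 for HSPE1, 2.39 for HSPA8, 3.00 for DNAJA1, 3.40 for HSPA5, 4.23 for DNAJB1, 4.33 for HSP90AA1 and 14.6 for HSPH1, against 55 for HSPB1 and 1500 for CRYAB. HSPA5 had its highest mean in luminal progenitor-like cells (22 ± 9.94), HSPA8 in fibroblast-like cells (16.1 ± 3.75), HSPE1 in Schwann-like cells (6.0 ± 2.11) and DNAJB1 in basal-like cells (3.64 ± 0.37). HSPH1 (6.04 ± 1.56), DNAJA1 (9.71 ± 4.03) and HSP90AA1 (4.21 ± 1.68) had theirs in macrophage-like cells. Each of these leading classes overlapped the next in the order. HSPH1 was lowest in luminal progenitor-like cells (0.413 ± 0.051), which lay below all other classes.

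**Figure D3:**
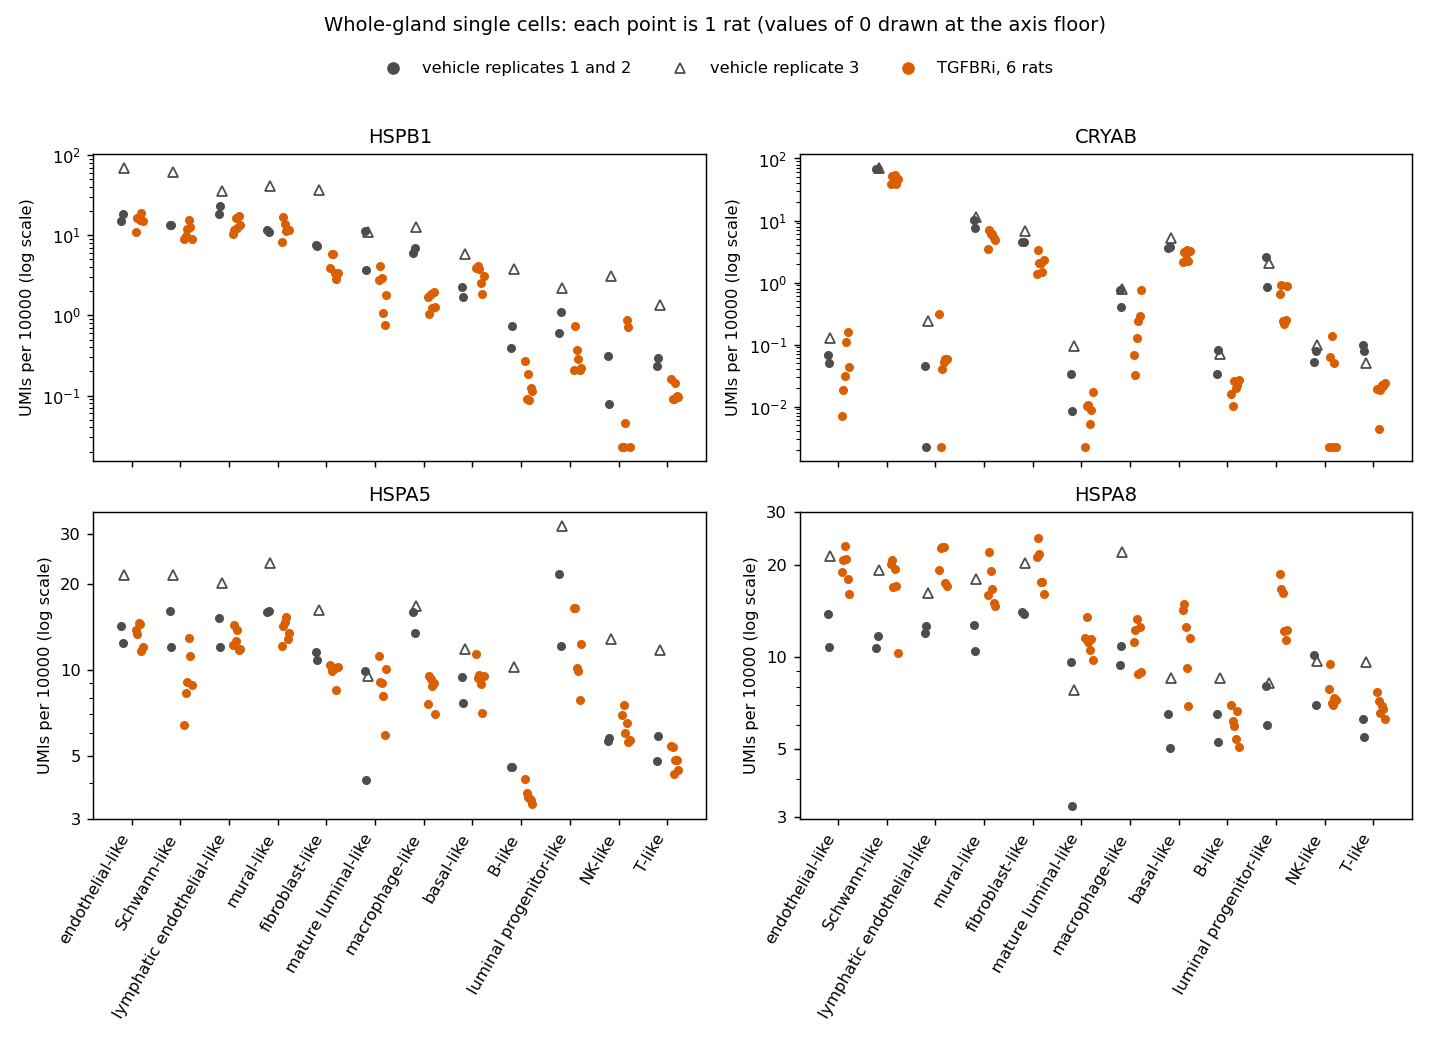
Level of HSPB1, CRYAB, HSPA5 and HSPA8 (y axis, UMIs per 10000, log scale) in each rat for 12 cell classes of whole glands, where filled points are vehicle and TGFBRi rats and the open triangle is vehicle replicate 3. For HSPB1 the triangle lies far above the other 2 vehicle rats in endothelial-like cells, at 69.5 against 15.2 and 18.2.

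Among the vehicle rats, replicate 3 was the highest in 96 of the pairs that 9 genes and 12 classes make. HSPB1 in endothelial-like cells was 15.2, 18.2 and 69.5 UMIs per 10000 in replicates 1 to 3, in fibroblast-like cells 7.59, 7.41 and 36.6, and in mural-like cells 11.5, 11 and 40.7. HSPH1 in B-like cells was 1.21, 1.18 and 5.95 and HSPA5 4.55, 4.58 and 10.3. That rat also gave fewer B-like cells than the other vehicle rats, which gave 1889 and 2417. Counts of called chaperones in the whole gland are therefore given with and without it. The rat was set apart by these same genes, so its removal alone raises most of their folds. Counts without it rest on vehicle replicates 1 and 2. The class means and ratios given above include that rat.

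Each chaperone was tested in the 12 classes, apart from CRYAB. It failed the count filter in 3, the NK-like, lymphatic endothelial-like and mature luminal-like classes. Of the tests, edgeR called 41, with 4 raised and 37 lowered in TGFBRi rats. Over all genes 31% of the tests were called, 15.5% higher and 15.5% lower. By class the share of genes called was 54.7% in basal-like, 42.3% in mural-like, 41% in endothelial-like, 40% in fibroblast-like, 35.7% in luminal progenitor-like, 35.5% in mature luminal-like, 25.6% in lymphatic endothelial-like, 21.3% in B-like, 21.1% in Schwann-like, 10.9% in T-like, 7.53% in macrophage-like and 5.29% in NK-like cells. Without vehicle replicate 3 the counts were 22 raised and 25 lowered, where 32.2% of all tests were called, 16.0% higher and 16.3% lower. Scaling to total UMIs gave 9 raised and 34 lowered, with 38 of the 41 calls kept, where 19.8% of all tests were higher and 12.1% lower. HSPB1, CRYAB, HSPA5, HSPE1 and HSPH1 had calls in the lower direction alone with all rats, in 10, 7, 7, 7 and 3 classes. Without vehicle replicate 3 they were lowered in 7, 6, 5, 5 and 2, and HSPB1 was raised in 1. HSPA8, DNAJA1, DNAJB1 and HSP90AA1 were raised in more classes once that rat was left out. It was mostly the highest vehicle rat for these genes, so such rises follow in part from its removal alone.

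HSPB1 was lowered in 10 of 12 classes, and in 7 of 12 without vehicle replicate 3, when it was raised in 1 (basal-like). In macrophage-like cells it was 6.03, 6.94 and 12.7 UMIs per 10000 in vehicle and 1.05, 1.23, 1.27, 1.68, 1.87 and 1.97 in TGFBRi rats, a wide gap between the arms (log2 −2.74 ± 0.31, SE from DESeq2, edgeR, adjusted p = 0.0011; −2.28 without vehicle replicate 3, adjusted p = 0.00021). All genes called in that class turned with the scaling, from 208 higher and 408 lower after TMM to 833 higher and 205 lower per total UMIs, where HSPB1 stayed called at −2.49 (adjusted p = 0.00216). The summed fibroblast markers, at 7.72 to 54.5 in vehicle and 2.09 to 77.4 in TGFBRi rats, overlapped. Markers of the endothelial-like and Schwann-like classes, where HSPB1 had higher means, are not given here. The part of any of these markers in the HSPB1 difference was not tested. In fibroblast-like cells HSPB1 was 2.88 to 5.83 in TGFBRi rats, all under the lowest vehicle rat (−2.36, edgeR, adjusted p = 0.00346; −0.96 without that rat, adjusted p = 0.00838). The endothelial-like call was lost, from −1.33 (adjusted p = 0.0181) to −0.24 (adjusted p = 0.191), as were those in Schwann-like (−0.22) and mural-like cells (−0.08). The B-like (−2.73, and −1.96 without that rat) and T-like calls (−2.42, and −1.14 without) were kept, at vehicle levels of 0.396, 0.742 and 3.74 and of 0.235, 0.296 and 1.34. In mature luminal-like cells HSPB1 was 11.4, 3.65 and 11 against 0.749 to 4.13, where 1 vehicle rat overlapped the treated ones (−2.04, edgeR, adjusted p = 0.0105, and −1.86 without that rat).

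CRYAB, which passed the count filter in 9 classes, was lowered in 7, and in 6 without vehicle replicate 3. In Schwann-like cells it was 66.8, 68.3 and 70.8 UMIs per 10000 in vehicle and 38.1, 38.3, 46.7, 52.1, 52.4 and 54.9 in TGFBRi rats, a tight and separate vehicle group (log2 −0.57 ± 0.16, edgeR, adjusted p = 0.0194; −0.50 without vehicle replicate 3, adjusted p = 0.0376). In fibroblast-like cells it was 4.50, 4.49 and 6.85 against 1.39 to 3.31 (−1.58, adjusted p = 0.00129; −1.22 without), and in mural-like cells 10.1, 7.53 and 11.3 against 3.44 to 7.12 (−1.0, adjusted p = 0.00188, and −0.91 without). The arms did not overlap in any of these 3 classes. In basal-like cells, where the sorted libraries had shown a rise, CRYAB was 3.61, 3.75 and 5.16 against 2.14 to 3.34 (−0.49, adjusted p = 0.0424; −0.36 without, adjusted p = 0.153). Luminal progenitor-like cells gave −1.92 (adjusted p = 0.0264; −1.87 without, adjusted p = 0.0788), with 0.855, 2.05 and 2.63 against 0.217 to 0.913. The calls in T-like (−2.09, and −2.19 without) and B-like cells (−1.52, and −1.50 without) concern levels of 0.0975 UMIs per 10000 or less.

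HSPA5 was lowered in 7 of 12 classes and in 5 without vehicle replicate 3. In macrophage-like cells it was 16.0, 13.5 and 16.8 UMIs per 10000 in vehicle and 7.01 to 9.52 in TGFBRi rats (log2 −1.07 ± 0.14, edgeR, adjusted p = 0.00321; −0.96 without that rat, adjusted p = 0.00144). The fibroblast-like (−0.63, and −0.30 without), mural-like (−0.61 and −0.42), B-like (−0.71 and −0.31) and Schwann-like calls (−0.85 and −0.55) shrank and were kept, and the endothelial-like (−0.46 and −0.15) and luminal progenitor-like calls (−0.94 and −0.61) were lost. HSPE1 was lowered in 7 classes and in 5 without the rat, in basal-like cells from 4.99, 4.88 and 6.40 to between 2.22 and 5.04 (−0.60, edgeR, adjusted p = 0.0246; −0.52 without). HSPH1 was lowered in macrophage-like cells, from 5.60, 4.75 and 7.78 to between 0.533 and 2.90 (−1.98, edgeR, adjusted p = 0.021; −1.70 without), and in NK-like cells (−1.01, adjusted p = 0.0167 and −0.80 without). Its other call, in endothelial-like cells, was lost (−1.38, and −0.11 without).

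HSPA8 was raised in 3 classes, basal-like, luminal progenitor-like and lymphatic endothelial-like, and in 8 without vehicle replicate 3. In basal-like cells it was 6.53, 5.06 and 8.58 UMIs per 10000 in vehicle and 6.95 to 14.9 in TGFBRi rats (log2 0.87 ± 0.25, edgeR, adjusted p = 0.0152; 1.02 without that rat), with overlap at 1 vehicle rat. In luminal progenitor-like cells it was 8.07, 6.02 and 8.27 against 11.4 to 18.8, with no overlap (0.86 ± 0.23, edgeR, adjusted p = 0.018; 0.92 without), and in lymphatic endothelial-like cells 12.1, 12.7 and 16.2 against 17.2 to 23 (0.51, adjusted p = 0.058; 0.71 without). DNAJA1 was raised in basal-like cells, from 3.74, 3.41 and 5.36 to between 4.37 and 8.76 (0.79 ± 0.23, edgeR, adjusted p = 0.0137; 0.95 without), and lowered in macrophage-like cells (−0.98, adjusted p = 0.0606; −0.53 without, adjusted p = 0.111). Without the rat DNAJA1 was raised in 6 classes and lowered in none. DNAJB1 and HSP90AA1 were called in 1 class each, lower in macrophage-like cells (−0.94, adjusted p = 0.0933, and −0.98, adjusted p = 0.0711). Both calls were lost per total UMIs (−0.69, edgeR, adjusted p = 0.145, and −0.74, adjusted p = 0.115), which kept 5 of the 7 calls in that class. Without the rat these genes were raised in 4 and 3 classes and lowered in none.

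**Figure D4:**
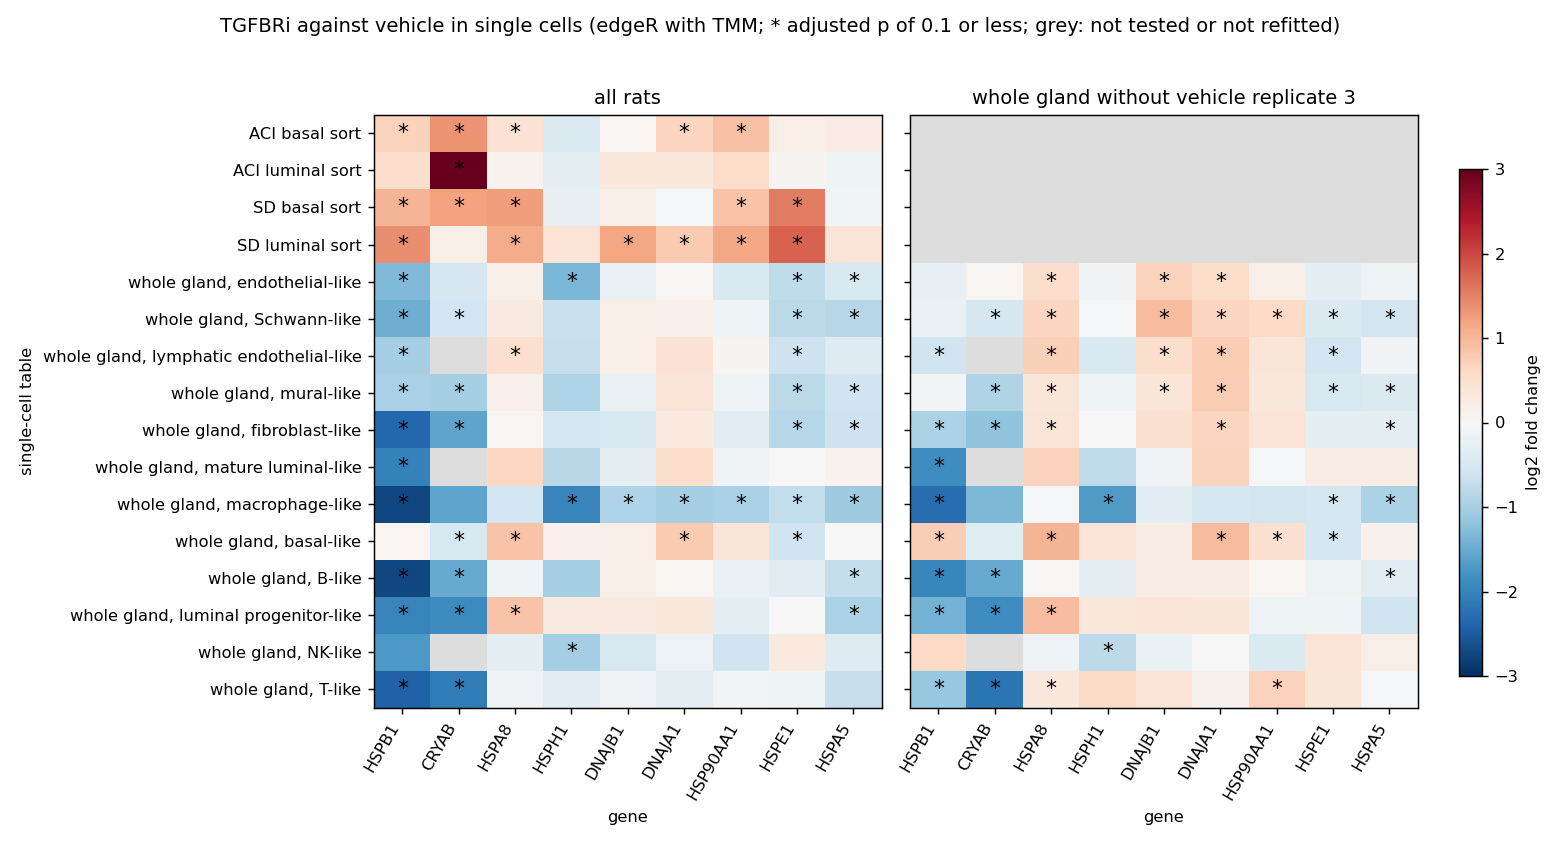
Log2 fold of TGFBRi against vehicle (colour; edgeR after TMM) for the 9 chaperone genes in 4 single-cell sorts and 12 whole-gland classes, with all rats on the left and without whole-gland vehicle replicate 3 on the right. Asterisks mark an adjusted p of 0.1 or less, and grey cells were not tested or not refitted. HSPB1 and CRYAB were each called higher in 3 of the 4 sorts and lower in 10 of 12 and 7 of 9 whole-gland classes tested, and HSPA8 turns to higher in more classes without that rat, 8 against 3.

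Some classes were made of different clusters in the 2 arms. Of the basal-like cells, cluster 4 held 90.7% in TGFBRi and 13.8% in vehicle rats. Cluster 12 held 1.94% and 75.5%, and 53.4% of its cells came from vehicle replicate 1. Of the luminal progenitor-like cells, clusters 5, 6 and 15 held 30.8%, 11.7% and 57.5% in vehicle and 44.2%, 53.5% and 2.39% in TGFBRi rats. Vehicle replicate 1 gave 60.6% of the cells of cluster 15. Macrophage-like cells lay 68.4% in cluster 21 and 31.6% in cluster 25 in vehicle rats, and 48.5% and 51.5% in TGFBRi rats. Among vehicle rats only replicate 3 had more cells in cluster 21 than in cluster 25, 474 against 46. Replicates 1 and 2 had 116 against 148 and 132 against 139. B-like cells lay 75.9% in cluster 0 in vehicle and 89.3% in TGFBRi rats. With all rats, values within these classes are therefore comparisons of different clusters as well as of arms. Within the macrophage-like clusters taken alone, HSPB1 was 6.77 to 13.2 UMIs per 10000 in vehicle and 1.54 to 2.89 in TGFBRi rats in cluster 21, and 5.0 to 6.47 against 0.352 to 1.63 in cluster 25. HSPA5 was 14.3 to 18.3 against 7.61 to 10.7, and 11.04 to 12.8 against 5.77 to 8.18. For both genes the arms did not overlap in either cluster. HSPH1 was 5.16 to 8.31 against 0.761 to 4.22 in cluster 21, without overlap, and 1.07 to 3.95 against 0.210 to 1.38 in cluster 25, with overlap. The arms of HSPE1, DNAJA1 and DNAJB1 overlapped in both clusters, and those of HSP90AA1 in cluster 21. The clusters were compared after seeing the data, with no test.

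The effect of TGFBRi could be set against that in the SD sorts, in a joint fit of both protocols added after seeing the data. In basal cells the whole-gland effect minus the sorted one was −2.13 for HSPE1 (edgeR, adjusted p = 0.000508) and −1.69 for CRYAB (adjusted p = 0.000553), and 0.86 for DNAJA1 (adjusted p = 0.0155), where 45% of all genes differed. Without vehicle replicate 3 the 3 genes stayed called at −2.05, −1.56 and 1.04, where 41.1% of all genes differed. Against the SD luminal sort, luminal progenitor-like cells differed in 5 genes, HSPB1 (−3.39), CRYAB (−2.10), HSPE1 (−1.77), HSP90AA1 (−1.43) and HSPA5 (−1.37), and 3 without the rat (HSPB1, HSPE1 and HSP90AA1), where 32.4% of all genes differed, or 27.7% without it. Mature luminal-like cells differed in HSPB1 (−3.37), CRYAB (−2.49), HSPE1 (−1.69), DNAJB1 (−1.38) and HSP90AA1 (−1.20), and in HSPB1, HSPE1 and HSP90AA1 without the rat, where 34.6% and 25.9% of all genes differed. The sorts used 3′ and the whole glands 5′ libraries, on different rats, the whole glands had no sorting step, and the luminal sort was not split into progenitor and mature cells, so protocol, chemistry, rats and cell make-up cannot be told apart here.

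Of the related lists, TRiC subunits were lowered in whole glands: 8 of 8 in endothelial-like, fibroblast-like and mural-like cells, 7 of 8 in basal-like, Schwann-like and lymphatic endothelial-like cells, 5 in luminal progenitor-like cells and none in T-like or NK-like cells. Of all genes, 21.4%, 21.2% and 21.2% were lowered in the first 3 classes, 25.3%, 11.4% and 13% in the next 3 and 16.4% in luminal progenitor-like cells. Without vehicle replicate 3 the counts were 8, 8, 8, 7, 6, 6 and 1, and per total UMIs 7, 8, 8, 8, 6, 7 and 2. HSF1 was lowered in 6 classes, among them basal-like (−0.69, edgeR, adjusted p = 0.000625), fibroblast-like (−0.77) and endothelial-like cells (−0.63), where it kept its call without the rat and per total UMIs. The luminal progenitor-like (−0.37) and lymphatic endothelial-like calls (−0.58) were lost in both, and the mural-like call (−0.52) per total UMIs. The small heat shock protein HSPB8 was lower in Schwann-like (−2.37, adjusted p = 0.00381), luminal progenitor-like (−2.33, adjusted p = 0.0012) and endothelial-like cells (−1.67, adjusted p = 0.000148), at −2.62, −2.33 and −1.78 without that rat. ER chaperones were lowered in 11 of 14 in T-like cells (9 without the rat) and 8 of 14 in B-like and macrophage-like cells (8 and 7 without it, and 3 in macrophage-like cells per total UMIs), and raised in 5 of 14 in mature luminal-like cells (7 without it). Of all genes, 5.26%, 10.3% and 4.99% were lowered in T-like, B-like and macrophage-like cells and 16.5% raised in mature luminal-like cells. Of 11 immediate early genes, 8 were raised in fibroblast-like, Schwann-like and lymphatic endothelial-like cells and 7 in basal-like cells (8, 8, 8 and 6 without the rat), where 18.9%, 9.65%, 12.6% and 29.4% of all genes were raised. In those classes 1, 1, 0 and 1 were lowered with and without the rat, and IER3 was lowered in fibroblast-like (−2.72, edgeR, adjusted p = 6.61e-05) and mural-like cells (−1.73, adjusted p = 0.000324) and ATF3 in luminal progenitor-like cells (−1.18, adjusted p = 0.00809). The part of these genes in the chaperone values was not tested.

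Many pairs of the 9 genes varied together among bulk samples of the same group. With group means removed, 24 of 36 pairs had a correlation with an adjusted p of 0.05 or less over 196 samples (179 for pairs with HSP90AA1), 23 of them positive and 1 negative, by 100000 permutations within groups. Over the 28 pairs without HSP90AA1 the median r was 0.335, with 64.3% of pairs at 0.287, the smallest r called among them, or above and 3.6% at −0.287 or below. Over all 54962370 pairs of the 10485 genes with values summing to 10 or more in every table the median was 0.0078, with 9.7% and 8.7% of pairs past the same limits. The highest was HSPA8 with its exchange factor HSPH1 (Pearson r = 0.634, Spearman rho = 0.610, adjusted permutation p = 4e-05 for each, from a raw p of 1e-05, the smallest that the permutations can give), which was positive within 16 of 16 tables and 0.620 without the 2 most extreme samples. HSPA8 also followed DNAJA1 (r = 0.570, rho = 0.594), HSPA5 (0.535, 0.544) and DNAJB1 (0.517, 0.497), positive within 15, 14 and 13 tables. HSPB1 followed HSPE1 (0.486, 0.464) and CRYAB (0.369, 0.420), while CRYAB with HSPA8 gave 0.0021 and 0.069 (adjusted permutation p = 0.983 and 0.461). HSPA5 and HSPE1, the ER and mitochondrial genes, ran against each other (r = −0.393, rho = −0.357, adjusted permutation p = 5.14e-05 and 0.00012), with 4 of 16 tables positive and r = −0.390 without the 2 most extreme samples. Samples of 1 rat share that rat, and samples of 1 table share a scaling, so these p-values treat as separate some samples that are not. Ranked by the correlation with the mean of 8 of the genes, each standardized (HSP90AA1 left out), the genes most like them among 10402, which leave out all other chaperones and genes of the lists, were the ubiquitin gene UBB (0.463), GGCT (0.456), UGP2 (0.448), the histone gene H3F3B (0.433) and the sterol enzyme IDI1 (0.430).

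**Figure D5:**
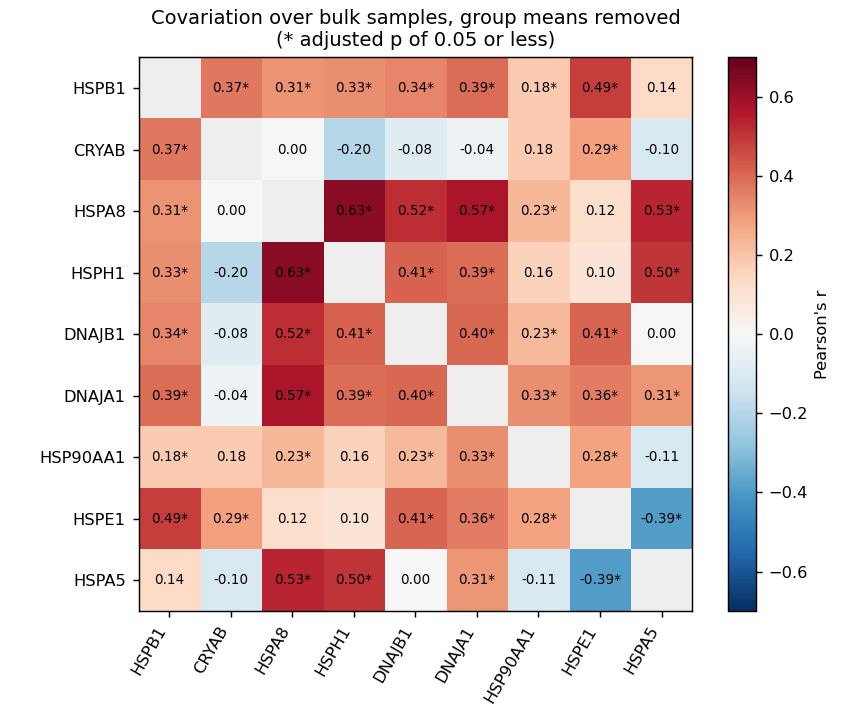
Pearson correlation (colour and number) of each pair of the 9 chaperone genes over 196 bulk samples (179 with HSP90AA1), as log2 values with group means removed. HSPA8 with HSPH1 is the highest at 0.634 and HSPA5 with HSPE1 the lowest at −0.393.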

How the data were processed

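Sorted mammary cells of 202 bulk samples, and 39 single-cell libraries of sorted cells or whole glands, were analysed from the processed files. For bulk samples the authors aligned reads with STAR 2.5.1b to rn6, counted them per gene with HTSeq without strand on the refGene annotation, and divided the counts by DESeq2 1.30.1 size factors, apart for each dataset. The deposited signal values are these normalized counts as the authors made them. Multiplied back they were whole reads at a tolerance of 0.001 in 100% of 2526550 values above 0. Rows naming no gene, in 85 files, held 23.077 to 42.504% of reads and were left out. The 4 parts of 1 rat (E2 luminal and CD45) were averaged, giving 196 samples. For single cells the authors used Cell Ranger 4.0.0 or 7.0.0 and Seurat 4.0.0 or 4.1.1, and deposited raw UMI counts of filtered cells (at least 100 genes and at most 15% mitochondrial UMIs; sorted libraries also without a Ptprc UMI and with at least 2 keratin UMIs). Cell Ranger and Seurat versions are those of the submitters' processing notes.

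Bulk values were tested as log2(value + 1) with limma 3.58.1 (trend, robust; sum of a gene at least 10; Benjamini-Hochberg adjusted p of 0.05 or less), so folds of low genes are understated. Single-cell counts were summed per rat and tested with edgeR 4.0.16 (quasi-likelihood, TMM, filterByExpr at 10 counts; adjusted p of 0.1 or less); SEs of single-cell folds come from DESeq2 1.42.0. UMIs per 10000 are UMIs of the gene over all UMIs of that rat's cells. Whole-gland cells were clustered with leidenalg 0.10.2 (2000 variable genes, 30 components, 20 neighbours, Leiden resolution 0.8), leaving out 85 chaperone and list genes. A cluster was named where at least 3 markers were detected, in clusters of at least 300 cells. A class entered a test with at least 20 cells per rat. Other clusters, with 18856 cells, stayed unnamed. No doublet caller was run; an alternative left out the 5% of cells with most UMIs. R 4.3.3 and Python 3.11.15 were used. Simulated data were used to try limma on young ACI basal samples and edgeR and DESeq2 on the SD basal sort, and no other fit. Depth is given in the results. Tests of TGFBRi against vehicle set the difference against the spread between rats. The main basal-against-luminal fits and the correlation p-values took samples of the same rat as separate.

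The genes and lists were chosen with earlier results of these data known. All 9 genes are described; of the lists, counts are given, and by name HSF1 and at most 5 called genes per comparison with the largest folds. Basal and luminal samples of vehicle rats came from the same rats; the deviations of the 2 samples of a rat correlated at −0.0245 to 0.1797 in ACI and 0.0587 to 0.0995 in SD bulk data, and at 0.1683 to 0.1815 in ACI and −0.0232 to 0.0776 in SD single-cell data. The joint fits of 2 data sets and the scaling to total UMIs or total reads were alternatives chosen after seeing the data. The columns used held 0 samples of another series.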

Additional observations from a re-analysis of the deposited data

Results flagged for a closer look

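Taking each gene in each group of 4 to 10 rats, and in single cells in each sort or class, gave 322 sets of values. In 29 of them 1 rat lay apart from the others by Dixon's criterion. Chance gives about 1 in 20 sets, or 16.1, where sets are separate and values normally spread. These values were not put on a log scale and the genes share rats, so 29 against 16.1 is not a test. In basal cells of adult virgin vehicle rats, replicate 1 was apart for 4 genes at once, with the highest HSPA5 (normalized count 133121 against 38130 to 47944), HSPB1 (28429 against 9552 to 11466) and HSPA8 (25293 against 15859 to 17315) and the lowest DNAJB1 (32542 against 68617 to 73811). It also had the highest DNAJA1 of its group, the gene called in that comparison.

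CRYAB was high in adult CD45 virgin vehicle replicate 1 (2751 against 472 to 547) and in adult basal parous vehicle replicate 2 (2473). DNAJB1 was low in E2 CD45 tumor-bearing vehicle replicate 3 (11544) and in adult luminal parous TGFBRi replicate 1 (9950), and high in adult luminal virgin vehicle replicate 2 (23204). HSPA8 was low in that same E2 CD45 vehicle rat (20503) and in E2 CD45 tumor-free TGFBRi replicate 2 (26876), and high in adult luminal virgin TGFBRi replicate 2 (32671). HSPB1 was high in adult basal parous TGFBRi replicate 2 (32208), HSPE1 in E2 CD45 vehicle replicate 4 without E2 (7374), and HSPH1 was low in adult luminal parous TGFBRi replicate 1 (1493). HSP90AA1, with 30 to 245 reads a sample in the adult set, was high in adult basal virgin vehicle replicate 3 (77.2) and adult luminal virgin TGFBRi replicate 3 (122), and low in adult luminal parous TGFBRi replicate 3 (64.6).

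In single cells only the SD TGFBRi groups, with 6 rats, could be screened this way, since vehicle groups held 3. HSPA8 was 20.4 UMIs per 10000 in SD basal sort replicate 4, 9.50 in NK-like cells of replicate 2 and 10.3, the lowest, in Schwann-like cells of replicate 6. CRYAB was 0.0044, the lowest, in T-like cells of replicate 2, 0.308 in lymphatic endothelial-like cells of replicate 1 and 0.757 in macrophage-like cells of replicate 6. DNAJB1 was 0.773, the lowest, in NK-like cells of replicate 6, 1.52 in T-like cells of replicate 1 and 1.89 in lymphatic endothelial-like cells of replicate 4. HSPA5 was 8.51, the lowest, in fibroblast-like cells of replicate 5, and HSPB1 0.729 in luminal progenitor-like cells of replicate 2.

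The TGFBRi effect differed between whole glands and SD sorts by the joint edgeR fit in 13 of 27 cases, 3 in basal-like, 5 in luminal progenitor-like and 5 in mature luminal-like cells, where 45%, 32.4% and 34.6% of all genes differed. Without vehicle replicate 3 there were 3, 3 and 3. Basal-like cells minus the basal sort gave −2.13 for HSPE1, −1.69 for CRYAB and 0.86 for DNAJA1. Luminal progenitor-like cells minus the luminal sort gave −3.39 for HSPB1, −2.10 for CRYAB, −1.77 for HSPE1, −1.43 for HSP90AA1 and −1.37 for HSPA5. Mature luminal-like cells minus the luminal sort gave −3.37 for HSPB1, −2.49 for CRYAB, −1.69 for HSPE1, −1.38 for DNAJB1 and −1.20 for HSP90AA1. CRYAB had failed the count filter in mature luminal-like cells fitted alone and was near the floor there.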

How the results depend on the processing

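Over all counts of called chaperones, 553 values under an alternative stayed within 1.5 times the main count and 49 did not. DESeq2 on recovered reads called 8 of 18 tests in NMU luminal cells, 2 for estradiol in vehicle rats, 2 in young ACI CD45 cells, 3 in vehicle rats over days, and 1 each in NMU CD45, NMU basal and adult CD45 cells, each against 0 by limma, and edgeR called 1 in NMU luminal cells. Basal against luminal bulk SD samples gave 3 calls by DESeq2, 2 by edgeR and 2 with the replicate block of the rat, against 1; that block changed no other count of calls. In adult rats, whose shared tags correlated at −0.43 to 0.25 and only share a name, a replicate block of the tag left 0 basal calls in place of 1, as did fitting only the groups compared. Fitting only those groups gave 1 call for estradiol, in young ACI basal cells and in vehicle rats over days, and a pseudocount of 5 gave 1 for estradiol. Scaling bulk samples to total reads gave 2 calls in NMU luminal and 1 in young ACI CD45 cells against 0, and 2 for basal against luminal in bulk SD (CRYAB and HSPH1, with HSPB1 lost) against 1. Scaling to total UMIs gave 2 calls in the ACI luminal sort against 1.

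Leaving out 1 rat gave 2 to 6 calls for basal against luminal in bulk ACI (2 without luminal replicate 2, and 3 without basal or luminal replicate 1) and 1 to 3 in bulk SD, 7 to 9 in single-cell ACI and 4 to 6 in single-cell SD data. For TGFBRi it gave 0 to 6 in NMU luminal, 0 to 1 in NMU basal, adult basal, young ACI CD45 and young ACI luminal cells, 5 to 6 in the ACI basal, 1 to 4 in the ACI luminal, 1 to 5 in the SD basal and 3 to 6 in the SD luminal sort, and 38 to 47 in whole glands; in vehicle rats it gave 0 to 1 for estradiol and 0 to 2 over days. Without whole-gland vehicle replicate 3, protocol differences numbered 3 in basal-like, 3 in luminal progenitor-like and 3 in mature luminal-like cells, and 5 folds changed sign: HSP90AA1 in Schwann-like (from −0.13 to 0.61) and T-like cells (−0.09 to 0.68), HSPA8 in T-like cells (−0.10 to 0.31), and DNAJB1 in endothelial-like (−0.19 to 0.70) and mural-like cells (−0.22 to 0.37). The lowest folds of these 5 without 1 rat were −0.44, −0.42, −0.33, −0.52 and −0.54 in that order. The causes were not tested. Groups of 3 or 4 rats and 13 or fewer HSP90AA1 reads a sample outside the adult and E2 sets limit the bulk data.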
